A study of Mus musculus with 8 samples.

Results

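The levels of 53 genes of mitosis and chromosome segregation were followed in splenic regulatory T (Treg) cells that differed in the level of a Bach2 reporter. They are the rows of the FPKM table whose Ensembl identifier carries 1 of 53 chosen symbols, grouped by the step of mitosis in which their products act. All 53 were found among the 36811 gene models of the table, and 52 passed the filter on low values, an FPKM of at least 1 in at least 4 of the 8 libraries. FPKM is a fragment count scaled by transcript length and library size, so levels can be set side by side between genes. The exception was Anln, described with the cytokinesis genes.

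Treg cells were sorted as Foxp3-GFP positive cells with low (LO) or high (HI) fluorescence of the Bach2-RFP reporter, with 4 bulk RNA libraries in each group. F1 and F2 of each group came from females and M1 and M2 from males, and libraries were made by SmartSeq2, a full-length cDNA method. The mice of both groups were C57BL/6, aged 12 to 13 weeks, with the genotype Foxp3EGFP-DTR Bach2tdRFP/+, in which Foxp3 carries a green reporter with the diphtheria toxin receptor and 1 Bach2 allele a red one. LO and HI cells thus carry the same alleles and were separated by the sort gate. Labels do not say whether the libraries came from separate animals, or whether libraries with the same label came from 1 animal, so a p-value reflects how these libraries vary, which may be technical.

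Entry into mitosis is driven by the kinase Cdk1 bound to cyclins A and B, after which condensin and topoisomerase compact the chromosomes and kinetochores attach them to spindle microtubules. A checkpoint holds the anaphase-promoting complex (APC/C) inactive until all chromosomes are attached, and the central spindle then directs cytokinesis. Transcripts of most of these genes accumulate in late S, G2 and M phase and are low in resting lymphocytes, where the DREAM complex represses many of them through promoter elements called the cell cycle homology region (CHR). Bach2 is a transcriptional repressor that restrains effector differentiation of T cells.

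Promoter windows of 250 bases before to 50 after the start of transcription are shown for the 4 called members with the smallest p that have a window, since they hold the elements described below. They are RefSeq sequences of GRCm38.p6, whereas the submitters' processing notes name an older build for the libraries. Capitals mark the CHR element (TTTGAA or TTTAAA) and the CCAAT box, which reads ATTGG where it lies on the other strand. The windows are chr10:69352863-69353162 on the minus strand for Cdk1, chr7:122159185-122159484 on the plus strand for Plk1, chr11:117848987-117849286 on the plus strand for Birc5, and chr7:135716330-135716629 on the minus strand for Mki67.
Cdk1: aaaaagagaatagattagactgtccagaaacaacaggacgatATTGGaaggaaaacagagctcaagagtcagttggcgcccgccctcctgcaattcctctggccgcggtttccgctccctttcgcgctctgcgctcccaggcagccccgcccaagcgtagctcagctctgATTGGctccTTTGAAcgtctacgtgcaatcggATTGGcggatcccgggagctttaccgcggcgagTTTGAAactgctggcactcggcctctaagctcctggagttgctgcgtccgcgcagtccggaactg
Plk1: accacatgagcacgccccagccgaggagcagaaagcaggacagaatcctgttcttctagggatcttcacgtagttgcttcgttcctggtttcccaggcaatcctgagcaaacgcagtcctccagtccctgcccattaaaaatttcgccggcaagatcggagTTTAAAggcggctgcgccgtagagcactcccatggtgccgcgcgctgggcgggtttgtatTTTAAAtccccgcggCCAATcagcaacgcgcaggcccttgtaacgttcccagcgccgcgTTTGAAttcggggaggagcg
Birc5: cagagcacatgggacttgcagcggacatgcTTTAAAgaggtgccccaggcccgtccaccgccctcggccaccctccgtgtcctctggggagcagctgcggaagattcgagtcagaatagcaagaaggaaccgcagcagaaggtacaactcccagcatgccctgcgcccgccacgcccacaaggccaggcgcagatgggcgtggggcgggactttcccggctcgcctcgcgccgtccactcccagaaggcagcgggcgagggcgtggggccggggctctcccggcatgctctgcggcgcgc
Mki67: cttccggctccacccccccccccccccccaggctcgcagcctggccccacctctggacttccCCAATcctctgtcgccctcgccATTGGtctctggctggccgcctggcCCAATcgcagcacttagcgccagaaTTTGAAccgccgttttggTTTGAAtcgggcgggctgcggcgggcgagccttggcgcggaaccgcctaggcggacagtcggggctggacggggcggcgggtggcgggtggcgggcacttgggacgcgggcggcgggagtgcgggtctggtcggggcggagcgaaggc
In the Cdk1 window, TTTGAA begins 71 and 15 bases upstream of the start, with CCAAT boxes 208, 80 and 48 bases upstream. The Mki67 window has TTTGAA 116 and 98 bases upstream, close behind 3 CCAAT boxes at 188, 166 and 141. Plk1 has TTTAAA 89 and 29 bases upstream, TTTGAA 31 bases downstream and a CCAAT box 14 upstream, while Birc5 holds a single TTTAAA, 220 bases upstream, and no CCAAT.

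A window was found for 42 of the 53 members (44 windows). Pbk, Ccna2, Foxm1, Tpx2, Incenp, Spc24, Stmn1, Aurkb, Kif20a, Smc4 and Cdc25c had none. Searched on both strands, TTTGAA occurred in 75% of the member windows, against 17.9% of all 32851 windows of the table. TTTAAA occurred in 20.5% of member windows and 13.2% of all windows, and CCAAT in 72.7% and 37.4%. A CHR of either form together with a CCAAT box was present in 68.2% of member windows, against 10.7% of all. The member windows were also richer in G and C, with a median of 59.0%, against 52.7% over all windows. Split by the expression calls below, 23 of 27 windows of members higher in LO cells (85.2%) held either CHR form, and 13 of 17 windows of the remaining members (76.5%) did. Of all windows, 27.6% held either form. These matches describe letters in the windows. They are no measure of bound factors, and the search was not tested.

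In the 8 libraries, the sort was visible in the gene itself. Bach2 had 0.894, 0.447, 0.753 and 0.67 FPKM in LO libraries F1, F2, M1 and M2, against 13.6, 20.7, 19.4 and 8.62 FPKM in HI libraries in the same order, an order kept throughout (two-sided exact permutation p = 0.0286, as low as 4 libraries a group allow). Foxp3 was at 14.7 ± 3.97 FPKM in LO and 14.2 ± 0.783 FPKM in HI libraries (SD, n = 4 each) and was not called (limma adjusted p = 0.985). T cell receptor and CD3 genes were high in every library, and the 10 Treg and T cell markers summed to 9958 to 13510 FPKM in LO and 8938 to 10160 in HI libraries; Ctla4 and Ikzf2 were higher and Tcf7 and Il2ra lower in LO cells. Read totals are not in the table. Steps between low values gave estimated depths, relative to HI F1, of 0.818 to 5.27 in LO and 0.636 to 1.27 in HI libraries. By this estimate LO M2 was the deepest and HI M1 the shallowest. The steps reflect read totals only if values were scaled by them, and the scaling is not given. The mitochondrial gene mt-Co2 is listed at 0 in LO F2 and at only 4.22 to 15.1 FPKM in the other libraries. A 0 in this table may be a low level or a failed estimate, which these values cannot tell apart. Members with a 0 are given by library.

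Over the members, 33 of 52 tested were higher in LO cells, 1 was lower and 18 did not pass the test (limma on log2(FPKM + 1), Benjamini-Hochberg adjusted p below 0.05 over all 11260 genes tested). Of all tested genes, 4.65% were called higher and 3.64% lower in LO cells. The median log2 difference, LO minus HI, was 1.76 over the 52 members and -0.03 over all tested genes, and 51 of the 52 were positive. In 37 tested members every LO library was above every HI library, which held for 7.9% of all tested genes. In 1 member, Smc4, every LO library was below every HI library, as in 7.18% of all genes. All 52 reached 1 FPKM in all 4 LO libraries, while 26 did so in all 4 HI libraries. The other 26 passed the filter only through LO, so a difference was partly built into their selection. Outside the spindle step, the called members among them were Ccnb2, Ccnb1, Cdc25c, Mki67, Ncapg, Nuf2, Spc24, Cenpe and Prc1. Among the 26 that pass on HI libraries alone, 18 were called higher. Because these are bulk samples, a larger share of dividing cells in the LO sort and more of these RNAs per cell cannot be told apart.

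**Figure D1:**
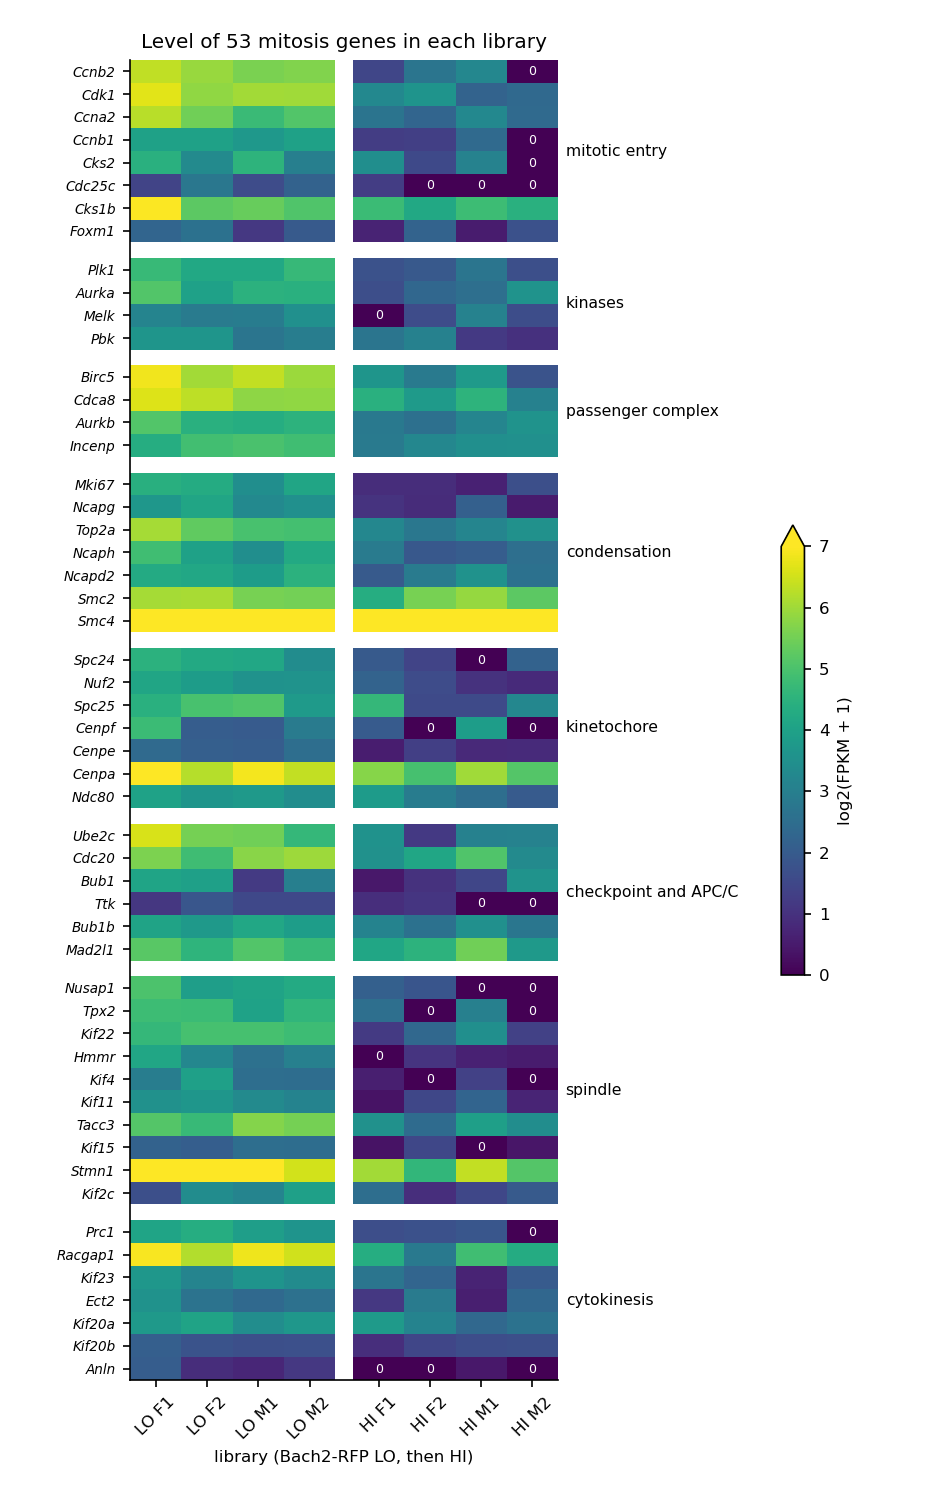
Level of each of the 53 members, as log2(FPKM + 1), in the 4 LO libraries (left block) and the 4 HI libraries (right block), grouped by step; a white 0 marks a value listed at 0, and the colour scale ends at 7. LO columns have no member at 0, HI columns have 3 to 11, and Smc4 lies at the top of the scale in all 8.

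Of the 8 genes of mitotic entry, 5 were higher in LO cells, with a median log2 difference of 2.25 over the step. Cdk1, the mitotic kinase, had 102, 56.7, 64.4 and 63.2 FPKM in LO libraries, against 8.69, 11.4, 3.56 and 4.16 FPKM in HI libraries (log2 difference 3.28, SE 0.36, limma adjusted p = 0.000619). Even the lowest LO library was far above the highest HI library. Ccna2, cyclin A2, which acts in S phase and early mitosis, had 74.7, 44.1, 25.8 and 33.5 FPKM in LO libraries, against 5.50, 3.73, 8.57 and 4.22 FPKM in HI libraries (log2 difference 2.75, SE 0.36, adjusted p = 0.00158). Its groups were separate too, with LO F1 high among the LO libraries. Both B-type cyclins, partners of Cdk1, followed: Ccnb2 ranged from 47.2 to 79.4 FPKM in LO and from 0 to 8.39 in HI libraries, with the greatest log2 difference of all members at 4.03 (adjusted p = 0.00315). Ccnb1 ranged from 12.3 to 15.0 FPKM in LO and from 0 to 4.29 in HI libraries (log2 difference 2.70, adjusted p = 0.0059). Cdc25c, the phosphatase that activates Cdk1, was low, at 1.68 to 5.87 FPKM in LO libraries and listed at 0 in all HI libraries but F1, at 1.37. Its call was marginal (log2 difference 1.68, adjusted p = 0.0492), held in 3 of 17 alternative settings and was lost without any 1 library other than HI F1 (adjusted p = 0.0565 to 0.132). Ccnb2, Ccnb1 and Cdc25c passed the filter only through LO, so part of their difference was built into their selection.

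The remaining entry genes did not pass the test. Cks1b and Cks2, small subunits that bind Cdk proteins, had 32.9 to 123 and 6.91 to 21.9 FPKM in LO libraries, against 17.4 to 26.6 and 0 to 9.72 in HI libraries (adjusted p = 0.127 and 0.192). The Cks1b groups did not overlap, but LO F1 stood at 123 FPKM and the other LO libraries at 32.9 to 40.5. Foxm1, a transcription factor that drives many G2 and M genes, had the weakest evidence of the step. It was at 3.74, 5.08, 1.18 and 2.91 FPKM in LO libraries and 0.593, 3.62, 0.447 and 2.35 FPKM in HI libraries (log2 difference 0.70, SE 0.49, adjusted p = 0.48), and its groups overlapped.

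Among the 4 kinases outside the Cdk family and the passenger complex, 2 were higher. Plk1, which acts at centrosomes, kinetochores and the central spindle, had 25.5, 17.5, 17.3 and 24.8 FPKM in LO libraries, against 2.38, 2.81, 5.62 and 2.19 FPKM in HI libraries (log2 difference 2.43, SE 0.32, adjusted p = 0.00145). Aurka, Aurora A, the centrosome and spindle kinase, had 33.1, 14.7, 21.1 and 20.6 FPKM in LO libraries, against 2.15, 3.95, 4.73 and 11.1 FPKM in HI libraries (log2 difference 1.97, SE 0.42, adjusted p = 0.018). Neither gene overlapped between groups, though HI M2 approached the LO libraries for Aurka and the Aurka call did not hold without LO F1 or HI F2 (adjusted p = 0.0528 and 0.0523, with a range of 0.00664 to 0.0878 over all alternatives). Pbk, a kinase of mitotic cells, overlapped, with 11.6, 11.7, 5.54 and 6.61 FPKM in LO libraries and 5.55, 7.24, 1.23 and 0.96 FPKM in HI libraries (log2 difference 1.27, SE 0.52, adjusted p = 0.197). Within each group, both female libraries of Pbk were above both male ones, and with sex as a covariate Pbk was called (adjusted p = 0.0479). Melk, a kinase of proliferating cells, ranged from 6.35 to 10.2 FPKM in LO and from 0 to 7.57 in HI libraries (adjusted p = 0.157, or 0.0345 without HI M1).

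The chromosomal passenger complex, which corrects faulty attachments and later acts at the cleavage plane, was higher in all 4 of its genes. Birc5, survivin, had 113, 64.5, 80.3 and 60.9 FPKM in LO libraries, against 11.6, 6.28, 12.8 and 2.48 FPKM in HI libraries (log2 difference 3.27, SE 0.43, adjusted p = 0.00145). Cdca8, borealin, had 98.9, 78.1, 55.5 and 56.6 FPKM in LO libraries, against 20.9, 12.8, 21.9 and 7.34 FPKM in HI libraries (log2 difference 2.20, SE 0.35, adjusted p = 0.00379). In both genes the groups were well separated. Aurkb, the kinase of the complex, had 33.4, 20.6, 19.0 and 21.4 FPKM in LO libraries, against 6.18, 4.88, 8.15 and 11.1 FPKM in HI libraries (log2 difference 1.54, SE 0.30, adjusted p = 0.0115, or 0.0539 without both LO M2 and HI M1). Incenp, its scaffold, averaged 26.5 ± 5.01 FPKM in LO and 8.68 ± 1.82 FPKM in HI libraries (SD, n = 4 each; adjusted p = 0.0052). The ratio of group means, LO over HI, was 3.12 for Aurkb and 3.06 for Incenp, and 9.64 for Birc5 and 4.59 for Cdca8.

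**Figure D2:**
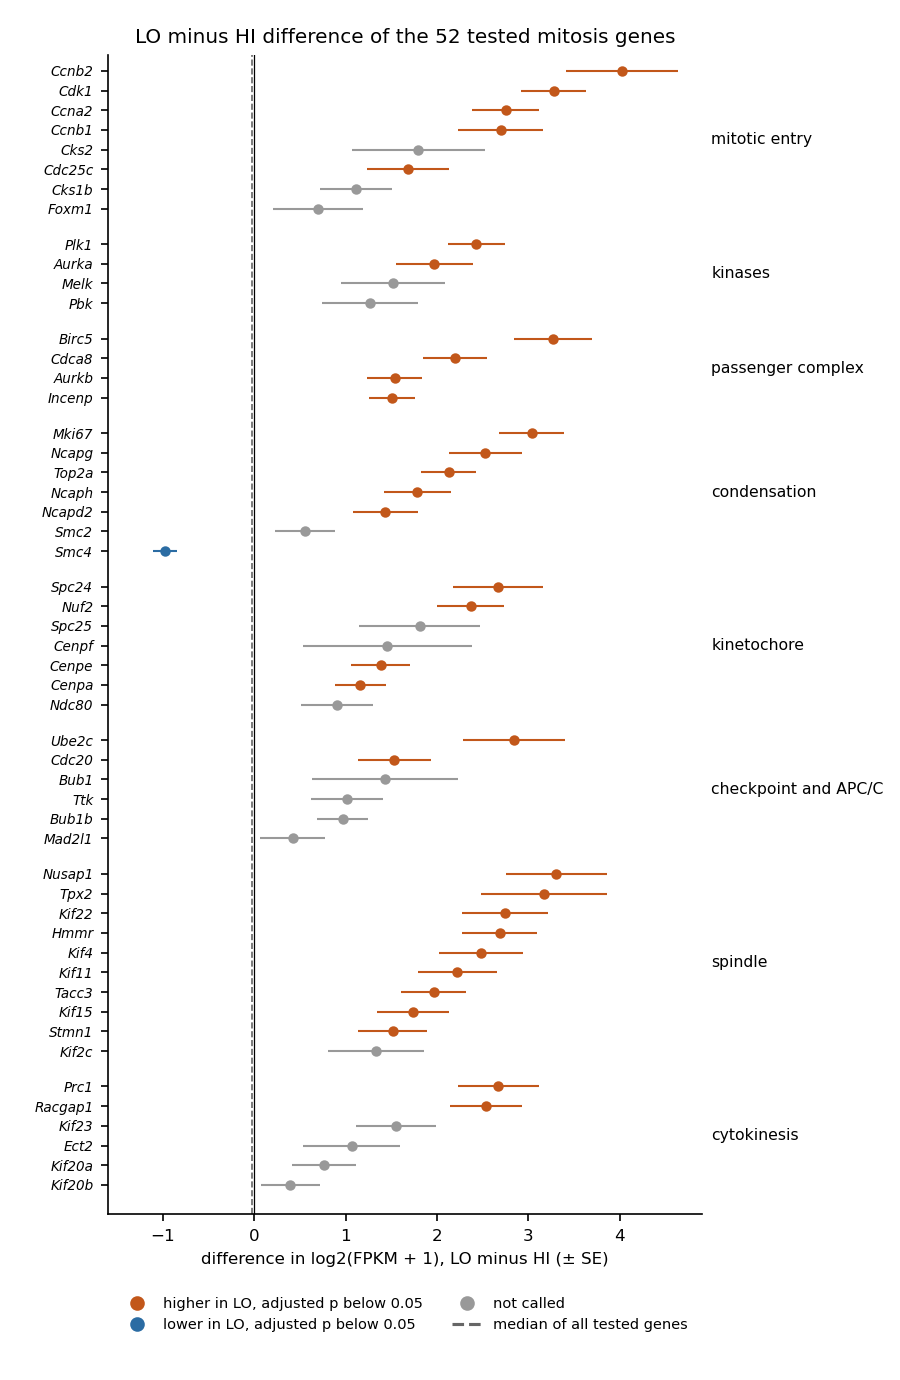
Difference in log2(FPKM + 1), LO minus HI, with its standard error for the 52 tested members, grouped by step and ordered by size within a step. All points but Smc4 (-0.97) lie right of 0, up to 4.03 for Ccnb2, and the dashed line marks the median of all tested genes (-0.03).

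Chromosome condensation held 5 genes that were higher in LO cells and the only one that was lower. Mki67, the Ki-67 antigen that coats mitotic chromosomes, had 20.5, 18.5, 9.79 and 16.4 FPKM in LO libraries, against 0.846, 0.854, 0.57 and 2.21 FPKM in HI libraries (log2 difference 3.04, SE 0.35, adjusted p = 0.000901). Top2a, the topoisomerase that untangles sister chromatids, averaged 40.7 ± 17.3 FPKM in LO and 8.19 ± 1.85 FPKM in HI libraries (SD, n = 4 each; adjusted p = 0.00229). The 3 non-SMC subunits of condensin I were higher as well. Ncapg, Ncaph and Ncapd2 ranged from 8.89 to 16.3, 9.86 to 27.7 and 13.3 to 21.4 FPKM in LO libraries, against 0.417 to 3.34, 2.76 to 6.41 and 2.89 to 10.8 FPKM in HI libraries (adjusted p = 0.00386, 0.015 and 0.0348). Ncapg, like Mki67, passed the filter only through LO, so part of the difference of both was built into their selection. The Ncaph call was lost without both LO M2 and HI M1 (adjusted p = 0.0903). The Ncapd2 call was lost without any 1 library other than HI M1 (adjusted p = 0.0525 to 0.0926).

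The SMC subunits, the ATPase arms of the condensin ring, did not share this pattern. Smc4 had 270, 332, 297 and 277 FPKM in LO libraries, against 494, 640, 568 and 615 FPKM in HI libraries (log2 difference -0.97, SE 0.13, adjusted p = 0.00185). Every LO library was below every HI library, and the call held in all 18 alternative fits, including both other scalings, but not with an added 2-fold threshold. Its dimer partner Smc2 had 65.0, 67.4, 46.3 and 44.7 FPKM in LO libraries and 19.0, 46.5, 58.1 and 36.4 FPKM in HI libraries, which overlapped (log2 difference 0.56, SE 0.32, adjusted p = 0.377). Accordingly, the level of Smc4 relative to Smc2 was 4.16 to 6.4 in LO libraries and 9.78 to 26.0 in HI libraries. Smc4 was the member with the highest FPKM in both groups, at 294 ± 27.6 FPKM in LO and 579 ± 64.0 FPKM in HI libraries (SD, n = 4 each), and also the steadiest in HI libraries, with a coefficient of variation of 11.1%.

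Genes around Smc4 were read after its value was seen. Ift80, a ciliary transport gene on the opposite strand beside it, had 18.4, 25.8, 16.9 and 32.3 FPKM in LO libraries, against 88.4, 102, 67.2 and 102 FPKM in HI libraries (log2 difference -1.93, SE 0.24, adjusted p = 0.00126). Trim59, on its other side, ranged from 15.8 to 34.6 FPKM in LO and from 29.8 to 82.1 FPKM in HI libraries and was not called (adjusted p = 0.208). The microRNA genes Mir15b and Mir16-2, which lie in an intron of Smc4, are listed at 0 in all 8 libraries. Whether Smc4 shares its difference with a neighbour was not tested.

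**Figure D3:**
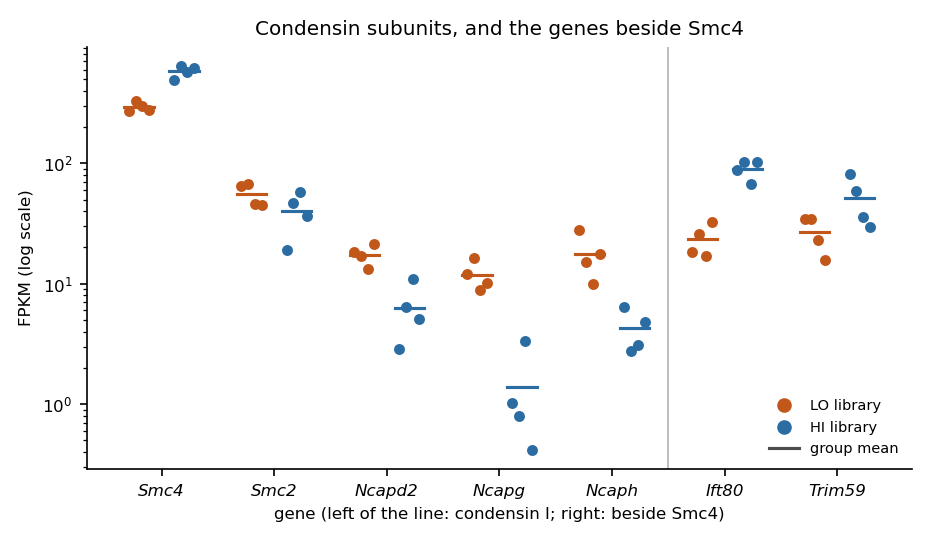
FPKM on a log scale of the 5 condensin I subunits and of the genes on both sides of Smc4, 1 point per library, LO left of HI for each gene, with lines at the group means. Smc4 and Ift80 are lower in every LO library than in every HI library, while Ncapd2, Ncapg and Ncaph are higher and Smc2 and Trim59 overlap.

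At the kinetochore, 4 of 7 genes were higher. Nuf2 and Spc24 are subunits of the NDC80 complex, which binds microtubules. Nuf2 had 16.2, 13.3, 10.8 and 11 FPKM in LO libraries, against 3.61, 2.01, 1.0 and 0.781 FPKM in HI libraries (log2 difference 2.37, SE 0.36, adjusted p = 0.00334). Spc24 had 21.0, 17.6, 17.1 and 9.32 FPKM in LO libraries, against 2.89, 1.63, 0 and 3.53 FPKM in HI libraries (log2 difference 2.67, SE 0.49, adjusted p = 0.00855, or 0.0626 with a pseudocount of 0.1). Both were separate between groups, but the other subunits of the same complex were not. Ndc80 ranged from 9.62 to 15.3 FPKM in LO and from 2.92 to 13.1 in HI libraries (adjusted p = 0.22), and Spc25 from 12.8 to 32.7 in LO and from 1.95 to 24.1 in HI libraries (adjusted p = 0.146). In both, HI F1 was the library that reached into the LO range, and without it Spc25 was called (adjusted p = 0.0239, with a range of 0.0239 to 0.512 over all alternatives). Cenpe, a kinetochore motor, ranged from 3.13 to 4.70 FPKM in LO and from 0.47 to 1.48 in HI libraries (adjusted p = 0.0265). The called genes Nuf2, Spc24 and Cenpe passed the filter only through LO, so part of their difference was built into their selection. Cenpa, the centromeric histone H3 variant, averaged 99.3 ± 26.0 FPKM in LO and 44.7 ± 15.8 FPKM in HI libraries (SD, n = 4 each; adjusted p = 0.0314). Cenpe lost its call without any 1 library other than LO M1 and HI F2 (adjusted p = 0.0552 to 0.0754), and Cenpa without LO F1, LO M1, HI F2 or HI M2 (adjusted p = 0.0804 to 0.0851). Cenpf, a large protein of the outer kinetochore, was scattered, with 26.2, 3.12, 2.98 and 6.33 FPKM in LO libraries and 2.92, 0, 13.7 and 0 FPKM in HI libraries (log2 difference 1.46, SE 0.93, adjusted p = 0.421).

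Of the 6 checkpoint and APC/C genes, 2 were higher in LO cells. The 2 called genes act in the APC/C: Ube2c, its ubiquitin-conjugating enzyme, and Cdc20, its activator. Ube2c had 95.2, 45.7, 43.6 and 24.2 FPKM in LO libraries, against 10.9, 1.22, 7.34 and 7.62 FPKM in HI libraries (log2 difference 2.84, SE 0.55, adjusted p = 0.0113, or 0.0514 with no filter). Cdc20 had 48.4, 27.2, 52.7 and 61.5 FPKM in LO libraries, against 10.4, 16.5, 32.5 and 8.94 FPKM in HI libraries (log2 difference 1.53, SE 0.40, adjusted p = 0.0449). Cdc20 was the single called member whose groups overlapped, since LO F2 lay below HI M1, and its call held in 8 of 18 alternatives and was lost without any 1 library other than LO F2 and HI M1 (adjusted p = 0.0903 to 0.113). None of the 4 genes of the checkpoint itself passed the test (limma), although all 4 had positive differences. An unadjusted p below 0.05 was found for 2 of them, and for 20.9% of all tested genes in either direction. Mad2l1, which with Bub1b blocks Cdc20, had 35.2, 22.5, 33.5 and 25.1 FPKM in LO libraries and 16.6, 21.4, 43.5 and 12.5 FPKM in HI libraries (log2 difference 0.42, SE 0.36, adjusted p = 0.565). Its highest library was HI M1. Bub1b ranged from 12.5 to 17.1 FPKM in LO and from 5.09 to 10.2 in HI libraries, without overlap (adjusted p = 0.0637, or 0.0419 without HI M1). Ttk, the kinase that starts the checkpoint, ranged from 1.15 to 2.70 FPKM in LO and from 0 to 1.11 in HI libraries (adjusted p = 0.174). Bub1, a kinetochore kinase, ranged from 1.28 to 16.0 FPKM in LO and from 0.37 to 11.2 in HI libraries (adjusted p = 0.347). Whether the checkpoint genes differ from the APC/C pair in their response was not tested.

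Spindle genes gave the most calls, 9 of 10, with a median log2 difference of 2.35. Only Kif22, Tacc3 and Stmn1 of this step reached 1 FPKM in every HI library. The others passed the filter only through LO, so part of their difference was built into their selection. Hmmr, which binds microtubules and hyaluronan, had 16.5, 8.39, 5.0 and 7.10 FPKM in LO libraries, against 0, 1.07, 0.562 and 0.437 FPKM in HI libraries (log2 difference 2.69, SE 0.41, adjusted p = 0.00324). Nusap1, a microtubule bundling protein, had 31.4, 13.8, 15.5 and 18 FPKM in LO libraries, against 3.35, 2.63, 0 and 0 FPKM in HI libraries (log2 difference 3.30, SE 0.55, adjusted p = 0.0052). In both genes LO F1 was the highest library and no HI library came near the LO range. The mitotic kinesins Kif22, Kif4, Kif11 and Kif15 were higher, with log2 differences of 2.74, 2.48, 2.22 and 1.74 (adjusted p = 0.00567, 0.0089, 0.0108 and 0.0237). With no filter, Kif4 and Kif11 were not called (adjusted p = 0.0566 and 0.0535). Kif22, a chromokinesin that moves chromosome arms, was the steadiest member in LO libraries, at 24.3 to 29.8 FPKM, against 1.28 to 10.1 FPKM in HI libraries. Kif4 ranged from 4.54 to 14.3 FPKM in LO and from 0 to 1.57 in HI libraries, Kif11 from 7.79 to 11.7 in LO and from 0.258 to 3.65 in HI, and Kif15 from 3.16 to 4.65 in LO and from 0 to 1.83 in HI. Tacc3, which stabilises spindle fibres, averaged 39.1 ± 11.6 FPKM in LO and 9.62 ± 4.0 FPKM in HI libraries (SD, n = 4 each; adjusted p = 0.0075). Tpx2, the activator of Aurora A on the spindle, ranged from 15.4 to 27.0 FPKM in LO and from 0 to 7.05 in HI libraries (adjusted p = 0.019). Stmn1, stathmin, which destabilises microtubules, was second to Smc4 in level and averaged 135 ± 37.3 FPKM in LO and 50.8 ± 26.9 FPKM in HI libraries (SD, n = 4 each; adjusted p = 0.0367). With 1 library left out, Kif15 lost its call except without LO F2 or HI F2 (adjusted p = 0.0513 to 0.0659), Stmn1 except without LO M2, HI F1 or HI M1 (0.0744 to 0.0974), and Tpx2 without LO F1, LO F2 or LO M2 (0.0506 to 0.0554). Kif2c, a kinesin that takes microtubule ends apart, was the exception, with 2.21, 9.43, 8.0 and 14.4 FPKM in LO libraries and 4.66, 0.899, 1.80 and 2.86 FPKM in HI libraries (log2 difference 1.33, SE 0.53, adjusted p = 0.181). LO F1, the highest LO library for most members, was here the lowest, and without it Kif2c was called (adjusted p = 0.0475, with a range of 0.0475 to 0.635 over all alternatives).

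For cytokinesis, 2 of 6 tested genes were higher. Racgap1, a part of centralspindlin, had 122, 72.6, 111 and 88.8 FPKM in LO libraries, against 19.2, 6.12, 28.1 and 18.3 FPKM in HI libraries (log2 difference 2.53, SE 0.39, adjusted p = 0.00351). Prc1, which bundles microtubules of the central spindle, had 15.9, 19.2, 14 and 11.4 FPKM in LO libraries, against 2.13, 2.34, 2.68 and 0 FPKM in HI libraries (log2 difference 2.67, SE 0.44, adjusted p = 0.00493, or 0.053 with a pseudocount of 0.1). Both were clear of overlap, but Prc1 passed the filter only through LO, so part of its difference was built into its selection. Kif23, the motor that pairs with Racgap1 in centralspindlin, ranged from 7.87 to 12.1 FPKM in LO and from 0.582 to 5.61 in HI libraries, also without overlap, and missed the threshold (adjusted p = 0.0598, or 0.0416 without HI F1). Ect2, the exchange factor that activates RhoA, ranged from 4.15 to 10.9 FPKM in LO and from 0.504 to 6.43 in HI libraries (adjusted p = 0.297). Kif20a, a kinesin of the central spindle, ranged from 9.51 to 15.7 FPKM in LO and from 4.03 to 12.8 in HI libraries (adjusted p = 0.255). Kif20b, a related kinesin, had 3.26, 2.45, 2.22 and 2.28 FPKM in LO libraries and 0.895, 1.76, 2.11 and 2.19 FPKM in HI libraries (log2 difference 0.40, SE 0.32, adjusted p = 0.55). Its libraries were only just apart. Anln, anillin, the scaffold of the contractile ring, was the untested member, with 3.07, 0.838, 0.686 and 1.21 FPKM in LO libraries, against 0, 0, 0.359 and 0 FPKM in HI libraries.

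Across the libraries, the members' summed FPKM without Smc4 was 1932, 1330, 1341 and 1216 in LO libraries, against 427, 314, 555 and 317 in HI libraries. LO F1 had the highest value of its group for 29 of 53 members, and HI M1 for 25. All 53 members were above 0 in each LO library, against 50, 48, 48 and 42 in HI libraries. Relative depth was 5.27 in LO M2, 0.818 to 1 in the 3 other LO libraries and 0.636 to 1.27 in HI libraries, and its part in these counts was not tested. Without LO F1, 25 members were called higher, and without both LO M2 and HI M1, 27 were. The median coefficient of variation was 28.5% among LO libraries over all 53 members. Among HI libraries it was 53.6% over the 38 members that had no 0 there. Levels differed too, with 41 members at 5 FPKM or more in all LO libraries and 12 in all HI libraries. The part of level in this spread was not tested.

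**Figure D4:**
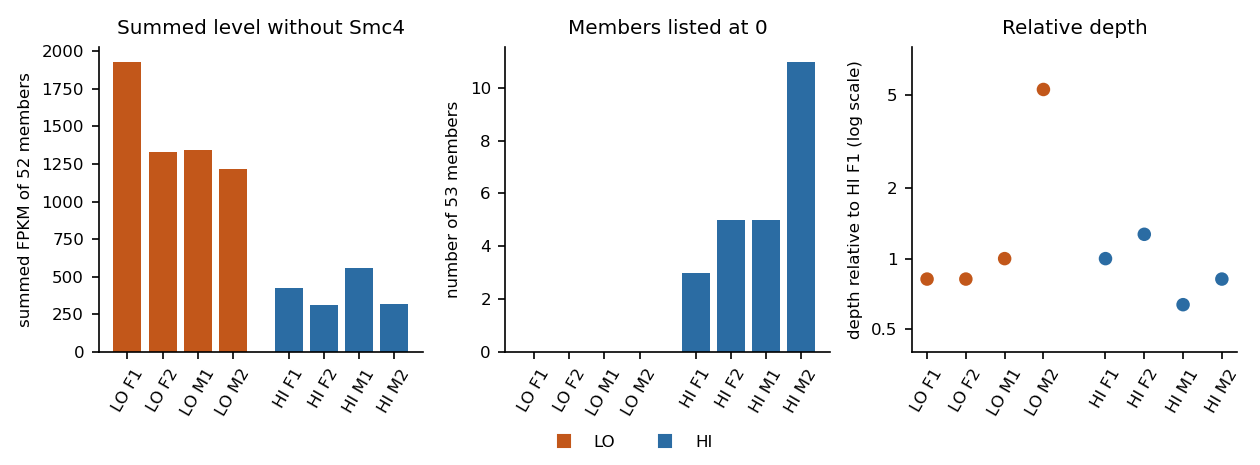
Summed FPKM of the members without Smc4, number of members listed at 0, and relative depth on a log scale, for the 4 LO libraries (left) and the 4 HI libraries (right). The LO sums, 1216 to 1932, lie above the HI sums, 314 to 555, and depths overlap between groups except for LO M2 at 5.27.

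Summed levels of markers of other cell types were separate between the groups for plasma cells, B cells and follicular helper T cells. They overlapped for the other lists given here. Summed FPKM of the plasma cell markers was 184.6 to 277 in LO and 128.6 to 153 in HI libraries. Of 7 tested, 5 had a positive log2 difference, the lowest being -0.876, and 2 were called higher in LO cells. The 2 were Jchain, the joining chain of antibodies, with 160, 88.1, 60.1 and 47.6 FPKM in LO libraries, against 3.0, 11, 12.2 and 17.1 FPKM in HI libraries, and Prdm1, a regulator that plasma cells share with effector Treg cells, with 16.2 to 30.1 FPKM in LO and 1.53 to 5.96 FPKM in HI libraries. Tnfrsf17, which defines plasma cells, was at 0 in all libraries but LO M2, at 1.11. Jchain was highest in LO F1, as were most members, and gave 160 of the 277 FPKM of the plasma cell sum there. In HI F2 it gave 11 of 152 FPKM, and the separation of the plasma cell sums rests on Jchain. Among LO libraries, the B, dendritic, myeloid and erythroid cell sums were also highest in LO F1. The erythroid sum was 457 FPKM there and 23.9 to 141 in the other LO libraries. The germinal centre B cell and follicular helper T cell sums were lowest in LO F1. Germinal centre B cell markers summed to 52.3 to 76.3 FPKM in LO and 61.5 to 102 in HI libraries, with Gcsam at 0 in all, and 0 of 3 tested were called (limma; at an unadjusted p below 0.05, 1 was higher and 1 lower). B cell markers ran the other way, at 78.8 to 105 FPKM in LO and 157.5 to 268 in HI libraries, with 4 of 8 tested lower in LO cells. Erythroid markers, from another dividing lineage, summed to 23.9 to 457 FPKM in LO and 109.6 to 302 in HI libraries, with 1 of 8 tested lower in LO cells. Markers of dendritic cells (136 to 250 FPKM in LO, 233.5 to 311 in HI) and of myeloid cells (100 to 262 in LO, 146 to 332 in HI) gave 2 calls each, all lower in LO cells. Follicular helper T cell markers summed to 337.5 to 731 FPKM in LO and 205.9 to 323 in HI libraries, without overlap, with 1 of 4 tested higher in LO cells. Markers of CD8 T and NK cells summed to 181 to 349 FPKM in LO and 133 to 198 in HI libraries, with 1 of 6 tested higher and 1 lower. Their sum and their single genes went different ways, since only 1 of the 6 had a positive log2 difference and the median was -0.648. The part of any such cells in the members' differences was not tested.

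Female and male libraries were compared over both groups. No member was called for sex (limma; smallest adjusted p = 0.808), against 0.0444% of all tested genes, and 4 of 52 had an unadjusted p below 0.05, against 3.92% of all genes. The 4 were Pbk, Nusap1, Cdk1 and Tacc3. For the interaction of sex and reporter level no member was called either (limma; smallest adjusted p = 0.999), against 0.0178% of all genes, and 2 of 52 had an unadjusted p below 0.05, Bub1 and Nusap1, against 3.83% of all genes, a share near that of the members. As a description only, Bub1 had 16.0 and 14.5 FPKM in the female LO libraries, against 0.37 and 1.0 in the female HI libraries, and 1.28 and 7.04 FPKM in the male LO libraries, against 1.75 and 11.2 in the male HI libraries. With 2 libraries in each cell of this comparison, absence of a call does not show that the sexes responded alike.

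Other genes of the cell cycle were read from lists that hold none of the members. Of 91 tested genes in a wider list of mitosis genes, 23 were higher and 0 lower in LO cells (limma; 35 and 2 at an unadjusted p below 0.05, which 20.9% of all tested genes reached in either direction), with a median log2 difference of 0.53. With 1 library left out, the count was 14 to 23, and it was 15 without LO F1, 14 without LO F2 and 15 without HI F2. The 3 with the smallest p were Cdc25b, Sapcd2 and Cdkn3. Cdc25b, a phosphatase that starts Cdk1 activation, had 86.2 to 156 FPKM in LO and 18.8 to 30.4 in HI libraries. Sapcd2, a regulator of spindle orientation, had 5.23 to 30 FPKM in LO libraries and was listed at 0 in every HI library. Cdkn3, a phosphatase of Cdk proteins, had 7.89 to 23.0 FPKM in LO and 0 to 1.64 in HI libraries. Sapcd2 and Cdkn3 passed the filter only through LO, so part of their difference was built into their selection. Of 64 DNA replication genes, 9 were higher and 0 lower (24 and 2 unadjusted), with a median of 0.37; without LO F2, and likewise without HI F2, 5 were higher. They were led by Rrm2, a subunit of ribonucleotide reductase (88.3 ± 23.3 FPKM in LO and 14.9 ± 3.28 FPKM in HI libraries, SD, n = 4 each), Slbp, which binds histone mRNA (219 ± 20.1 FPKM in LO and 120.1 ± 15.1 FPKM in HI libraries), and Gmnn, geminin, the inhibitor of origin licensing (50.3 ± 9.7 FPKM in LO and 17.1 ± 5.37 FPKM in HI libraries).

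**Figure D5:**
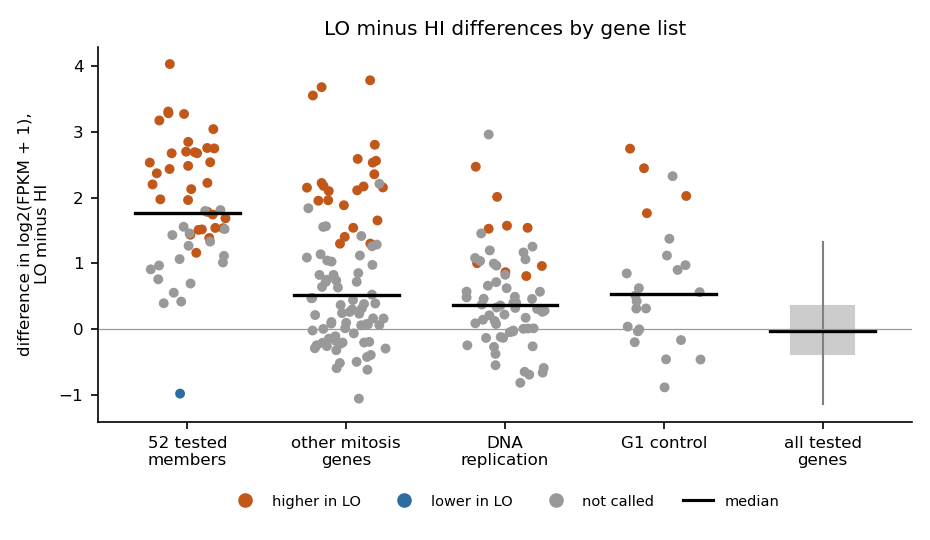
Difference in log2(FPKM + 1), LO minus HI, of each tested member and of the tested genes of 3 other lists, coloured by call, with lines at the medians; the grey box and whiskers give the quartiles and the 5th and 95th percentiles of all tested genes. Medians are 1.76 for the members, 0.53 for other mitosis genes, 0.37 for DNA replication and 0.54 for G1 control.

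Of 24 tested genes of G1 control, 4 were higher and 0 lower (8 and 2 unadjusted), with a median of 0.54. Rbl2, the pocket protein p130, had 54.4 to 107 FPKM in LO and 21.7 to 22.8 FPKM in HI libraries (adjusted p = 0.00111). Cdkn2c, the Cdk4 and Cdk6 inhibitor p18, had 25 to 40.3 FPKM in LO and 4.72 to 10.5 in HI libraries (limma adjusted p = 0.002). E2f8, a repressing E2F, had 3.0 to 11 FPKM in LO and 0 to 0.633 in HI libraries (limma adjusted p = 0.00762). E2f8 passed the filter only through LO, so part of its difference was built into its selection. Of 12 genes of the DREAM and MuvB complexes, which act through CHR elements, Rbl2 was the one called, and the median was -0.02. Whether these complexes act at the matches shown above was not tested. No set test was made, so these medians and counts stand as descriptions beside those of the members.

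Counting limits a few of these values. SmartSeq2 does not keep strand, and 10 members share 53 to 1271 exon bases with an expressed gene on the opposite strand in the GENCODE annotation. They are Ccna2, Cdc20, Cdca8, Kif20a, Kif4, Ncapg, Nusap1, Prc1, Tacc3 and Ube2c, for which reads of both genes cannot be told apart within the shared bases. For Kif20a the partner is Cdc23, with up to 50.5 FPKM in LO and 54.2 FPKM in HI libraries. On its own strand, Ncapd2 shares 237 exon bases with Scarna10, a small RNA gene with up to 11.6 FPKM in LO and 0 in HI libraries.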

How the data were processed

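The deposited table holds FPKM values per gene model, 1 column per library, which the authors took from Cuffnorm, per the name of the deposited table. FastQC, cutadapt, HISAT2 and the builds mm9 and NCBIM37 are named in the submitters' processing notes, and the libraries were made with SmartSeq2, per the labels' protocols. How libraries were scaled to each other is not given in the sources used here. No further scaling was applied, and the depth behind a value can be estimated only relative to other libraries.

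Symbols came from a GENCODE annotation by Ensembl identifier (31840 of 36811 matched). Genes that reached 1 FPKM in 4 or more libraries entered a limma fit (version 3.58.1, R 4.3.3) of log2(FPKM + 1) on reporter level alone, with eBayes and a trended prior variance. P-values were adjusted over all these genes by Benjamini-Hochberg with a threshold of 0.05; a fold change on this scale understates that of low genes. The script was tested on simulated data. Sex and its interaction with reporter level were coefficients of the same kind of fit. The series design text describes a single-cell experiment and was not used.

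The members, steps and lists were chosen with earlier results of these data known. Values in every library are given for the 2 genes with the smallest p and the 1 with the largest in each step, and up to 3 called genes of each other list are named with a range or a mean. Same-labelled LO and HI libraries deviated together with correlations of 0.0149 to 0.113. LO F1, LO M1 and LO M2 deviated most like the HI library of the same label, and LO F2 most like HI M2. These values cannot settle whether animals were shared. The labels state no pairs, so none were used in the main fit. Spearman correlations between libraries were 0.893 to 0.931 within and 0.848 to 0.894 between groups. The fit was repeated with quantile or upper quartile scaling, without the filter or with it at 5 FPKM, with a pseudocount of 0.1, with an untrended or a robust prior variance, with sex or a replicate block as a term, with a 2-fold threshold, with each library left out, and with LO M2 and HI M1 left out together.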

Additional observations from a re-analysis of the deposited data

Results flagged for a closer look

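In 8 of the 106 sets of 4 libraries (53 members in 2 groups), 1 library stood far from the other 3 by its gap relative to the range of the set. Chance alone does this in about 1 in 20 sets of independent, normally distributed values. The sets here share libraries and some hold zeros, so their count cannot be set against that rate. Where the other 3 values are all 0, as for Cdc25c and Anln in HI libraries, the rule flags the set automatically. LO F1 stood high for Cdk1 at 102 FPKM (others 56.7 to 64.4), for Cks1b at 123 FPKM (32.9 to 40.5), for Aurkb at 33.4 FPKM (19.0 to 21.4) and for Cenpf at 26.2 FPKM (2.98 to 6.33). LO M1 stood low for Ccnb1 at 12.3 FPKM, with the others at 15.0. Among HI libraries, M2 stood high for Bub1 at 11.2 FPKM (0.37 to 1.75), F1 for Cdc25c at 1.37 FPKM and M1 for Anln at 0.359 FPKM, the others being listed at 0 for these last genes. Without LO F1, the LO minus HI calls of Cdk1 and Aurkb remained, and Cks1b and Cenpf were not called with or without it.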

How the results depend on the processing

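No member turned its direction under any of the alternatives. Of the 34 called members, 18 stayed called under all 18 alternative fits, Smc4 among them, and 25 stayed called whichever library was left out; Aurka, Cdc20, Cdc25c, Cenpa, Cenpe, Kif15, Ncapd2, Stmn1 and Tpx2 lost the call without some library (adjusted p = 0.0506 to 0.132 where lost). The number of members higher in LO cells was 25 to 32 with 1 library left out, 34 with upper quartile scaling, 27 with a pseudocount of 0.1 and 20 with no filter. Calls were also lost with no filter (Ncaph, Ube2c, Kif11 and Kif4, adjusted p = 0.0514 to 0.0566), with a pseudocount of 0.1 (Spc24 and Prc1, 0.0626 and 0.053) and without both LO M2 and HI M1 (Aurkb and Ncaph, 0.0539 and 0.0903). Without a filter, most residual variances are 0, limma warned of it, and 458 genes were called in all, against 934. Smc4 (log2 difference -0.97) falls just short of a 2-fold threshold, which leaves 0 members lower. The median of all genes was -0.03 as deposited, -0.03 with quantile and 0.00 with upper quartile scaling.

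Of the wider mitosis list, 12 genes were higher with no filter, 12 with a filter at 5 FPKM, 15 without LO M2 and HI M1, and 14 to 23 with 1 library left out (15 without LO F1, 14 without LO F2, 15 without HI F2). The DNA replication list gave 5 with no filter and 5 to 9 with 1 library left out (5 without LO F2 and 5 without HI F2). The cause was not tested. With the label as a replicate block, 29 members were higher, 1 was lower and 771 genes were called in all. The block ended the calls of Cdc25c, Ncapd2, Cenpe, Cdc20 and Kif15 (adjusted p = 0.108, 0.0822, 0.0776, 0.0656 and 0.0652) and gave one for Cks2 (0.0458); 3 of the 4 LO libraries deviated most like the HI library of the same label. For sex and for its interaction with reporter level, 0 members were called in every alternative. In HI libraries 15 members had a 0 in some library, and these values may be low levels or failed estimates.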
